A study of Mus musculus with 4 samples.

Results

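The genes described here encode the nuclear subunits of the mitochondrial respiratory chain and of ATP synthase, measured by RNA sequencing in leukaemic mouse spleen cells. They were taken by name (symbols starting with Nduf followed by a, b, c, s or v, with Uqcr, with Cox4 to Cox8 or with Atp5, and Sdha to Sdhd) and by level: the 4 samples had to average 1 FPKM or more. FPKM, a read abundance scaled by transcript length and library size, is the name the authors gave their values. Of 28074 symbols in the table, 94 had such names and 88 passed the level, out of 12612 genes that did so in all. By symbol, 45 belonged to complex I, 4 to complex II, 8 to complex III, 15 to complex IV and 16 to complex V. The name rule also took 7 Ndufaf assembly factors, Ndufa4 (now counted as a subunit of complex IV) with its paralogue Ndufa4l2, and Atp5s and Atp5sl, which are not subunits of the enzyme.

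R848 (resiquimod) is an imidazoquinoline that activates the endosomal RNA sensor TLR7. Cells treated for 3 days with 10 µg/ml R848 (n = 2) were compared with cells given vehicle (control, n = 2), the stated question being which genes and pathways respond. Both groups came from the same 2 mice, numbered 4050 and 4182, whose genotype is written as Dnmt3a fl/fl, Flt3 ITD/ITD, Mx1Cre. Elsewhere the labels give Dnmt3a as +/-, and the conflict was not resolved here. Mx1-Cre is an interferon-inducible recombinase active in blood cells, and the 2 donors are primary leukaemias, not a line. All cells were kept in medium with SCF, IL6 and IL3, and a recovery of 24 hours is recorded for both groups beside the 3 days of treatment. The labels record no sort, so spleen cells that are not leukaemic can be present, and in such bulk samples fewer cells of a type and less RNA per cell cannot be told apart.

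The respiratory chain passes electrons from NADH (complex I) or succinate (complex II) through coenzyme Q to complex III, then through cytochrome c to oxygen at complex IV. Complexes I, III and IV pump protons, and ATP synthase (complex V) uses the gradient to make ATP. Most subunits are encoded in the nucleus, while a small set of core subunits is encoded by mitochondrial DNA. In macrophages, Toll-like receptor signals are known to shift metabolism from respiration towards glycolysis, with itaconate and nitric oxide acting on the chain.

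Most subunit transcripts lay near their control level, and those that changed were isoforms of low abundance. With limma and Benjamini-Hochberg adjustment over 12612 genes, 0 of 88 members rose and 1, Cox4i2, fell, where 1.47% of all tested genes rose and 0.381% fell. At an unadjusted limma p under 0.05, 1 member was higher and 3 were lower, where 5.2% of all tested genes were higher and 6.33% lower. With median log ratio scaling these counts were 6 and 3 members, beside 6.89% and 5.16% of all tested genes. With the mouse as a block in limma, 0 members rose and 3 fell (Cox4i2, Cox6a2 and Ndufa4l2), beside 3.4% of all tested genes that rose and 1.9% that fell. All 3 are alternative forms, or a paralogue, of subunits of complex IV.

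Summed over the 88 members, the level was 16624 and 17334 FPKM in the R848 samples of mice 4050 and 4182, against 17113 and 16184 FPKM in their controls. This was 1.74% and 1.80% of all expression with R848, and 1.79% and 1.71% in controls. The groups overlapped, with a lower sum than its control in the R848 sample of mouse 4050 and a higher one in that of mouse 4182. The median difference (R848 minus control, on the log2(FPKM + 1) scale) was 0.04 over the members, where it was -0.08 over all tested genes. It was 0.01 with quantile normalization and 0.11 with median log ratio scaling, and -0.02 without the control of mouse 4182. Within mouse 4050 these medians were -0.04 for members and 0.00 for all tested genes, and within mouse 4182 they were 0.09 and -0.16. The R848 sample of mouse 4182 had a median log2 ratio of -0.12 to the mean profile of all tested genes, whereas the other 3 samples lay between 0.04 and 0.05.

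**Figure D1:**
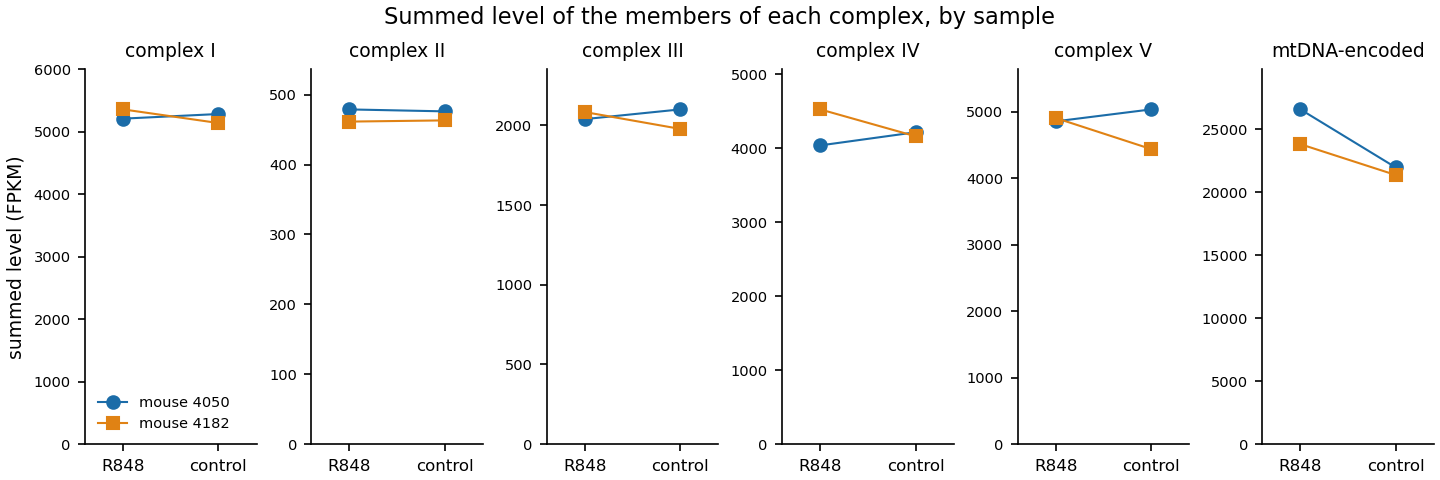
Summed level in FPKM (y axis, from 0, a scale of its own in each panel) of the members of complexes I to V and of the 13 subunits encoded by mitochondrial DNA, in the R848 and control sample of each mouse. Lines join samples of 1 mouse, and the nuclear sums of R848 and control lie close together while both mitochondrial sums are higher with R848.

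Of the 88 members, 30 were higher with R848 in both mice (34.1%), 26 were lower in both (29.5%) and 32 went opposite ways. Over all tested genes, 22.1% were higher in both mice and 38.8% lower in both. The R848 and control values of 22 members did not overlap and were higher with R848 (13.5% of all tested genes did so), and those of another 22 did not overlap and were lower (28.8% of all). The differences were small: 66 members (75.0%) lay within 0.2 on the log2 scale, where 53.7% of all tested genes did. These shares are not matched for level: the median control level was 142 FPKM for members and 16.1 FPKM over all tested genes. Within 0.2 lay 85.7% of the 70 members with a mean of at least 50 FPKM and 33.3% of the 18 under it. The median absolute difference between R848 and control, taken on the mean of the 2 mice, was 0.14. Between the 2 mice, taken on single samples, it was 0.12 with R848 and 0.13 in controls. Over all tested genes these values were 0.18, 0.21 and 0.20.

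Precision was best for the abundant members. The 70 members with a mean of at least 50 FPKM all lay between -0.29 (Cox7a2l) and 0.35 (Cox5a), which is a change of at most 1.27-fold. Their median 95% interval from limma, before any adjustment over genes, reached 0.36 on either side of the difference. The adjusted threshold is stricter, so changes larger than this could also go uncalled. The other 18 members held the whole range, from -2.15 to 0.51.

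**Figure D2:**
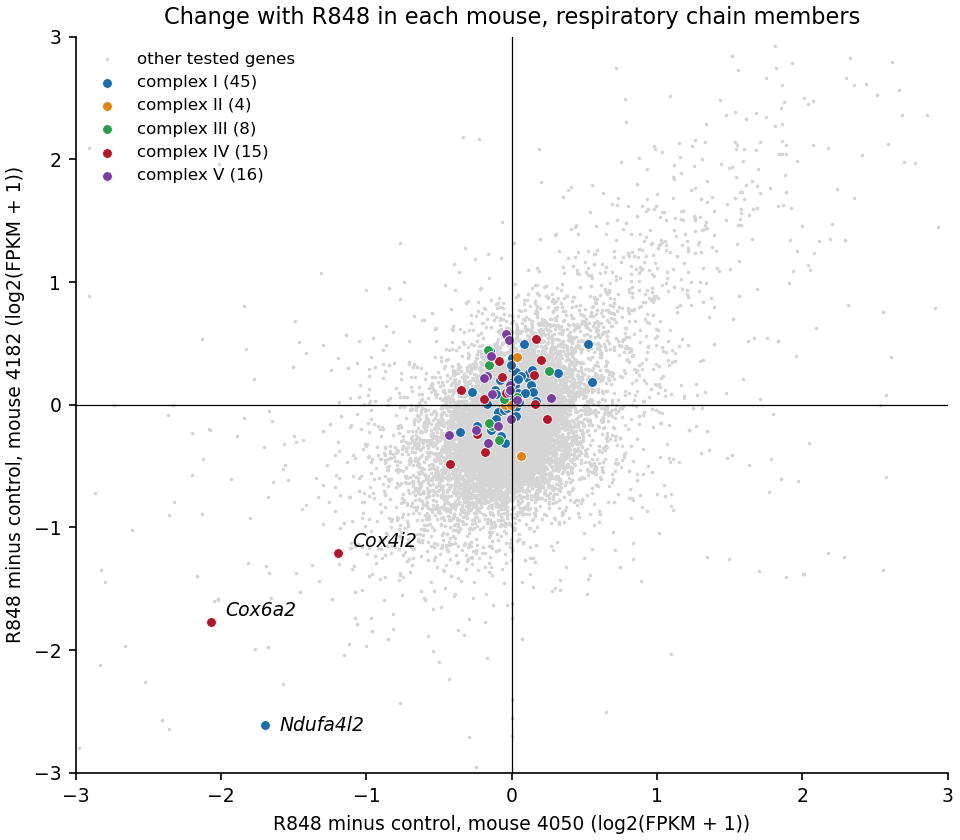
Difference between R848 and control (log2(FPKM + 1)) in mouse 4050 on the x axis and mouse 4182 on the y axis, for the members and, behind them, for the other tested genes. Axes end at 3 on either side, which leaves 99 tested genes outside, and Cox4i2, Cox6a2 and Ndufa4l2 are the members far from the origin, lower in both mice.

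Complex I (NADH to coenzyme Q) had 45 members by name, with 0 of them raised by limma (21 higher in both mice, 12 lower in both, median 0.06). The 7 nuclear core subunits, some of which carry the flavin and iron-sulphur clusters, had a median of -0.05, and 4 of them were lower in both mice.

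The 29 accessory subunits surround that core and had a median of 0.06, with 13 higher and 6 lower in both mice. Ndufa12, an accessory subunit of the matrix arm, had 10.6 and 9.50 FPKM with R848 against 7.07 and 6.43 FPKM in controls. Both R848 samples lay above both controls, yet the log2 difference of 0.51 ± 0.19 SE did not pass limma (adjusted p = 0.346, and 0.248 with the block). Ndufb4, of the membrane arm, had 60.3 and 48.2 FPKM with R848 against 40.8 and 42.4 FPKM in controls, at a log2 difference of 0.37 (limma adjusted p = 0.492).

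The 7 Ndufaf assembly factors help build complex I and are not part of the finished enzyme. Their median was 0.15, with 5 higher and 1 lower in both mice and 0 called by limma. Ndufaf6 had the highest difference of the 7, with 15.1 and 14.8 FPKM in R848 samples and 11.9 and 12.2 FPKM in controls (log2 difference 0.29, limma adjusted p = 0.604). Ndufaf7, a methyltransferase, had the lowest, with 10.7 and 9.27 FPKM in R848 samples and 13.9 and 11.0 FPKM in controls (-0.29, limma adjusted p = 0.665).

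Complex II (succinate dehydrogenase) also belongs to the citric acid cycle, and its 4 subunits had a median of -0.01. Sdha, the flavoprotein that oxidises succinate, had 106 and 82.5 FPKM with R848 against 102 and 110 FPKM in controls, higher in 1 mouse and lower in the other. Sdhb, the iron-sulphur subunit, had 98.4 and 109 FPKM with R848 against 96.0 and 83.2 FPKM in controls. Its groups did not overlap, and its log2 difference of 0.21 did not pass limma (95% interval -0.17 to 0.59). The membrane anchors were nearly level: Sdhc had 104 and 93.3 FPKM with R848 against 108 and 93.3 FPKM in controls. Sdhd had 170 and 176 FPKM with R848 against 171 and 176 FPKM in controls, a log2 difference of 0.00 with a limma 95% interval from -0.34 to 0.34.

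Complex III (coenzyme Q to cytochrome c) had 8 members with a median of 0.03. Uqcrc2, a core protein, and Uqcrfs1, the Rieske iron-sulphur protein, were lower in both mice at -0.15 each, and neither passed limma. For Uqcrc2 the values were 149 and 134 FPKM with R848 against 164 and 151 FPKM in controls. Among the small subunits, Uqcrb, which lies near the coenzyme Q site, had 374 and 349 FPKM with R848 against 313 and 288 FPKM in controls. At 0.26, with limma adjusted p = 0.580 and groups that did not overlap, it had the highest difference in complex III. Uqcrh, the hinge protein next to cytochrome c1, had 456 and 423 FPKM with R848 against 485 and 517 FPKM in controls (-0.19), and Uqcrq stood at 0.05.

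Complex IV (cytochrome c oxidase) had 10 constitutive subunits among its members, with a median of 0.08, and 0 of them were called. Cox5a, one of the nuclear subunits, had 294 and 319 FPKM with R848 against 263 and 220 FPKM in controls (log2 difference 0.35 ± 0.16 SE, limma adjusted p = 0.482, and 0.298 with the block). Cox7b had 354 and 359 FPKM with R848 against 307 and 278 FPKM in controls, at 0.28 (limma adjusted p = 0.546). For both genes each R848 sample was above each control. Cox7a2l, a factor that joins complexes III and IV into supercomplexes, had 274 and 316 FPKM with R848 against 313 and 413 FPKM in controls. It was lower in both mice at -0.29 (limma adjusted p = 0.635), and its groups overlapped.

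Complex V (ATP synthase) made up 16 members with a median of 0.03, and 9 of them went opposite ways in the 2 mice. Atp5b, the catalytic beta subunit, had the highest level of all members, with 934 and 928 FPKM in R848 samples and 942 and 830 FPKM in controls. Atp5j had 218 and 170 FPKM with R848 against 180 and 164 FPKM in controls (0.16), and Atp5f1, of the peripheral stalk like Atp5j, stood at 0.04. Atp5g1, which encodes the membrane c-ring subunit, had 238 and 245 FPKM with R848 against 245 and 164 FPKM in controls, and Atp5g3, a second gene for it, had 250 and 231 FPKM with R848 against 253 and 212 FPKM in controls. Atp5g2, a further gene for the same mature protein, is listed at 0 in all 4 samples. The reason was not tested, and how reads were shared among these genes is uncertain. The 2 members that are not subunits were the lowest: Atp5sl had 16.6 and 17.7 FPKM with R848 against 22.7 and 21.1 FPKM in controls (-0.34, limma adjusted p = 0.522). Atp5s followed at -0.24.

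**Figure D3:**
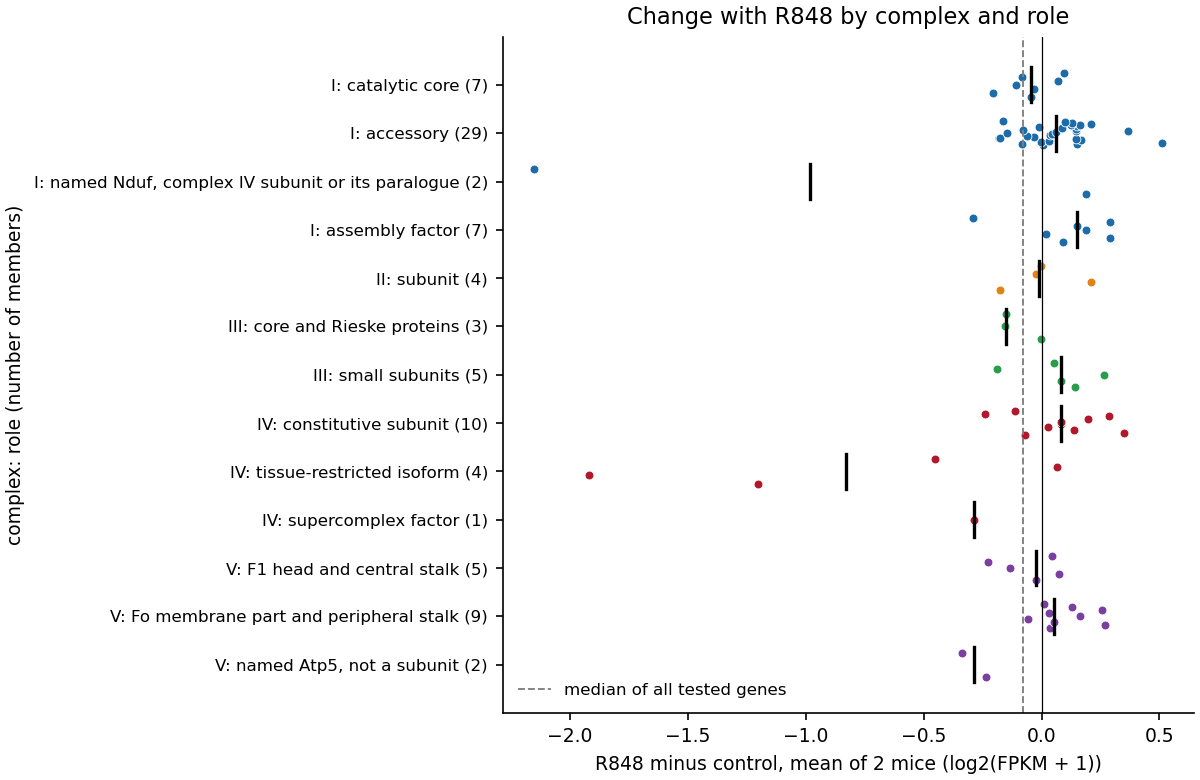
Mean difference between R848 and control over the 2 mice (x axis, log2(FPKM + 1)) of each member, a point each, by complex and role (y axis, number of members in brackets). Black bars are role medians and the dashed line is the median of all tested genes, -0.08; the role medians lie between -0.29 and 0.15 except for the isoforms of complex IV (-0.83) and the pair that holds Ndufa4l2.

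The order of levels was kept: over the 88 members, the mean levels with R848 and in controls had a Spearman correlation of 0.989 across genes, and over all tested genes of 0.968. After Atp5b (a mean of 908 FPKM over the 4 samples) came Cox4i1 at 616, Cox8a at 582, Cox6b1 at 481, Atp5a1 at 481 and Uqcrh at 470 FPKM. The member nearest the level required was Cox6b2, a testis isoform of complex IV, at a mean of 1.37 FPKM. Just outside it lay Atp5l2, at 0.54 FPKM. The other 5 names left out were Atp5l-ps1, Cox7b2 and Cox8b, all under 1 FPKM in every sample, and Atp5g2 and Cox8c, listed at 0.

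Promoters of chain genes are known for sites of NRF1, of ETS factors such as GABP and of YY1. RefSeq promoters on GRCm38.p6 (250 bases before to 50 after the start) were found for 73 of the 88 members. They were searched on both strands for GCGC and TGCGC separated by 1 free base (NRF1), for CCGGAAG (ETS and GABP) and for AAGATGGC (YY1), of which the last pair can overlap. NRF1 letters were in 18 promoters (24.7%, where 5.19% of 27025 promoters of all genes hold them), ETS letters in 17 (23.3%, 9.93% of all) and YY1 letters in 11 (15.1%, 3.19% of all). At least 1 of the 3 was in 40 promoters (54.8%, 16.4% of all). The interferon response element, GAAA and GAAA separated by 2 free bases, was in 2 (2.74%, 3.99% of all). The promoters of all genes were not limited to genes that passed the level, so these shares are not matched for expression. A match describes the letters and shows no binding.

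The promoters of 4 members are printed 5′ to 3′ on the gene's strand, with motif letters in capitals, as examples of members near their control level: the constitutive forms Cox6a1 and Ndufa4, the complex II anchor Sdhd and the complex I accessory subunit Ndufs6. Cox6a1 (chr5:115348909-115349208, minus strand) has NRF1 letters starting 162 and 117 bases before the start and ETS letters 16 before it. Ndufa4 (chr6:11907401-11907700, minus strand) holds none of the 4 motifs in this window. Sdhd (chr9:50603800-50604099, minus strand) has NRF1 letters 79 and ETS letters 46 bases before the start. Ndufs6 (chr13:73328433-73328732, minus strand) has NRF1 letters 16 bases before the start and YY1 letters 34 after it.
Cox6a1: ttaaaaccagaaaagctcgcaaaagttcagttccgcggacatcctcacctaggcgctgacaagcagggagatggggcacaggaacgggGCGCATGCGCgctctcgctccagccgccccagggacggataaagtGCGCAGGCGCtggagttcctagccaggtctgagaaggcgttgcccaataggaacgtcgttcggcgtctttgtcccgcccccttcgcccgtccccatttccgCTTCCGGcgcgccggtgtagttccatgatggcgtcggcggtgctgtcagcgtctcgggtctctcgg
Ndufa4: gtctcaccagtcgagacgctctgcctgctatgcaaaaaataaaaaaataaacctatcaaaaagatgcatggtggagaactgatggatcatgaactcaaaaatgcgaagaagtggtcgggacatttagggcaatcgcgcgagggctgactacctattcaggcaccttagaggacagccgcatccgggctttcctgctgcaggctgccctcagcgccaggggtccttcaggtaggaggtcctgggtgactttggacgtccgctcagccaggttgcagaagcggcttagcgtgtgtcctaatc
Sdhd: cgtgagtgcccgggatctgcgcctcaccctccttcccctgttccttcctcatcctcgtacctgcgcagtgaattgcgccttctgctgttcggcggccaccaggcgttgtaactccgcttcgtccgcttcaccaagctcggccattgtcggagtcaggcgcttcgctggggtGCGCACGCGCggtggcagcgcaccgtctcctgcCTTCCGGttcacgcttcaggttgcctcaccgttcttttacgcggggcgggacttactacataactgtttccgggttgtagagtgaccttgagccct
Ndufs6: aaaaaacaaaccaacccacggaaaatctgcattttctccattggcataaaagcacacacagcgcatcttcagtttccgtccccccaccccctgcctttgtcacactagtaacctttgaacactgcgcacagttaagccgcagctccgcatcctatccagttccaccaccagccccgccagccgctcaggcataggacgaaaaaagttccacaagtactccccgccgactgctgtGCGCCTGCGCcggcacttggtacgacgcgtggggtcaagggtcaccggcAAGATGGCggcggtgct

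The clearest differences belonged to tissue-restricted forms of complex IV subunits. Cox4i2 is the alternative to Cox4i1, the subunit through which ATP is known to inhibit the enzyme, and is known to be induced by low oxygen and abundant in lung. Cox4i2 (chromosome 2, 152754173 to 152765037, plus strand, GRCm38) had 4.44 and 5.47 FPKM with R848 against 11.5 and 14.0 FPKM in controls. Both R848 samples were under the lower control, and the differences within the mice were nearly equal (-1.20 and -1.21). The mean log2 difference was -1.20 ± 0.21 SE, a fall to 0.39 of the control mean (limma adjusted p = 0.0363, and 0.00382 with the block). Cox4i1 (chromosome 8, 120668222 to 120674207, plus strand) had 577 and 625 FPKM with R848 against 658 and 605 FPKM in controls, with groups that overlapped and a difference of -0.07.

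The Cox4i2 call held in 8 of 14 settings. It ended with no filter on low values (limma adjusted p = 0.297), with quantile normalization or median log ratio scaling without the block (0.116 and 0.109), and without the control of mouse 4182 (0.107) or the R848 sample of mouse 4050 (0.21) or 4182 (0.187).

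Cox6a2 is the heart and skeletal muscle form of subunit 6a, and Cox6a1 the form of most other tissues. Cox6a2 (chromosome 7, 128205435 to 128206387, minus strand) had 1.09 and 5.16 FPKM with R848 against 7.77 and 20.0 FPKM in controls. The mice differed in level in both groups, mouse 4182 being the higher, and in each mouse the R848 sample was the lower. The log2 differences within mice 4050 and 4182 were -2.07 and -1.77. Their mean of -1.92 did not pass limma without the block (SE 0.56, adjusted p = 0.211) and passed with it (SE 0.22, adjusted p = 0.000164). Cox6a1 (chromosome 5, 115345642 to 115348981, minus strand) had 294 and 332 FPKM with R848 against 303 and 311 FPKM in controls, a difference of 0.03.

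Ndufa4l2 is a paralogue of Ndufa4 and a known target of hypoxia-inducible factor. Ndufa4l2 (chromosome 10, 127514967 to 127517154, plus strand) had 10.0 and 2.37 FPKM with R848 against 34.7 and 19.5 FPKM in controls. Here mouse 4050 was the higher in both groups, and each R848 sample again lay under both controls. The mean log2 difference of -2.15, from -1.70 in mouse 4050 and -2.61 in mouse 4182, passed limma with the block (adjusted p = 9.7e-05) and not without it (adjusted p = 0.121). Ndufa4 (chromosome 6, 11900292 to 11907497, minus strand) had 422 and 434 FPKM with R848 against 422 and 333 FPKM in controls, a difference of 0.19 that did not pass limma (adjusted p = 0.756). When the block was combined with quantile normalization or median log ratio scaling, the 3 isoforms were again called lower (1.08% and 1.15% of all tested genes were). With these rescalings and no block 0 members were called lower (0.0951% and 0.119% of all).

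**Figure D4:**
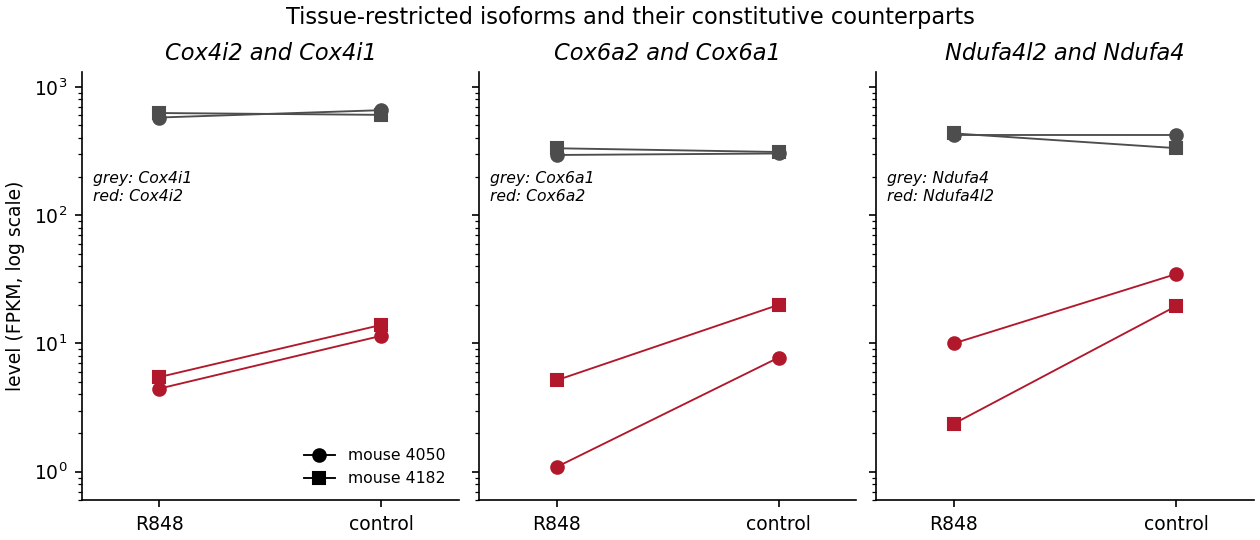
Level in FPKM (log axis) of Cox4i2, Cox6a2 and Ndufa4l2 (red) and of Cox4i1, Cox6a1 and Ndufa4 (grey) in the R848 and control samples, with lines joining the samples of each mouse (circles 4050, squares 4182). Each red line is lower with R848 in both mice, while the grey ones lie at 294 to 658 FPKM in all samples.

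Other isoforms did not pass. Cox7a1, the muscle form of subunit 7a, had 5.11 and 4.33 FPKM with R848 against 7.20 and 6.45 FPKM in controls. Its groups did not overlap, with a log2 difference of -0.45 (limma adjusted p = 0.470, and 0.364 with the block). Cox7a2, the liver-type form, had 308 and 318 FPKM with R848 against 278 and 268 FPKM in controls, at 0.20. Cox6b2 had 1.83 and 1.04 FPKM with R848 against 1.39 and 1.21 FPKM in controls, near the level required, and Cox6b1, the somatic form, stood at 0.08.

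Markers of cells known to express these isoforms were measured beside them. All 7 pericyte markers (Rgs5, Kcnj8, Abcc9, Notch3, Pdgfrb, Higd1b and Cspg4) had a mean under 1 FPKM, with a summed level of 0.909 and 0.867 FPKM with R848 against 0.740 and 1.39 FPKM in controls. Of 9 striated muscle markers, 1 (Tnni2) reached a mean of 1 FPKM, and their sum was 2.32 and 2.57 FPKM with R848 against 4.40 and 4.93 FPKM in controls. The muscle sum thus moved in the direction of Cox6a2, and its part in the result was not tested. Among 9 plasmacytoid dendritic cell markers, a cell type in which Cox6a2 has been reported, the defining Siglech had a mean under 1 FPKM in each group, and the sum was 129 and 230 FPKM with R848 against 67.5 and 89.0 FPKM in controls. Most of that sum was Bst2, a gene known to be induced by interferon, with 111 and 213 FPKM with R848 against 50.9 and 65.7 FPKM in controls. Bst2 passed limma with the block and Ly6d with and without it, both higher with R848. The other 3 tested markers of the list did not pass: Runx2 (-0.81) and Tcf4 (-0.47) were lower in both mice, Spib (-0.32) went opposite ways, and the median of the 5 was -0.32. These 3 lists, and the next, were chosen after the values of the members were seen.

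Ndufa4l2 and Cox4i2 are known to respond to low oxygen, so 23 other genes of that response were examined (Pdk1 and Higd1a are also in lists below). Of 22 tested, 20 were lower with R848 in both mice (38.8% of all tested genes were), and the median difference was -0.51, with -0.25 in mouse 4050 and -0.75 in mouse 4182. Limma called 1 as lower, and 4 with the block (0.381% and 1.9% of all tested genes were). Ankrd37, a hypoxia-induced ankyrin repeat protein, had 24.2 and 23.9 FPKM with R848 against 46.2 and 65.3 FPKM in controls and fell by 1.16 (limma adjusted p = 0.0374, and 0.00144 with the block). That call ended under both rescalings without the block (0.113 and 0.101). Bnip3, a mitochondrial protein of mitophagy, had 291 and 307 FPKM with R848 against 477 and 658 FPKM in controls (-0.90, limma adjusted p = 0.0783, and 0.00341 with the block). Pfkfb3, a glycolytic activator, was the 1 gene higher in both mice, and whether the list moves with the isoforms was not tested.

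The 13 chain and ATP synthase subunits encoded by mitochondrial DNA summed to 26578 and 23816 FPKM with R848 against 21973 and 21373 FPKM in controls. Both R848 samples were above both controls. The complex IV genes mt-Co1, mt-Co2 and mt-Co3 were higher in both mice (0.16, 0.23 and 0.42), as was mt-Nd3 of complex I, which had 1433 and 1614 FPKM with R848 against 1200 and 1102 FPKM in controls (0.40, limma adjusted p = 0.388). None of the 13 passed limma without the block. At an unadjusted limma p under 0.05, 1 was higher and 4 were lower (5.2% and 6.33% of all tested genes were).

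In contrast, 5 complex I genes of mitochondrial DNA (mt-Nd2, mt-Nd4, mt-Nd4l, mt-Nd5 and mt-Nd6) were lower in both mice. Mt-Nd5, a proton-pumping subunit, had 83.9 and 77.0 FPKM with R848 against 118 and 129 FPKM in controls, each R848 sample under each control. Its difference of -0.61 ± 0.15 SE had limma adjusted p = 0.132, and 0.0371 with the block. The call with the block ended when quantile normalization or median log ratio scaling (adjusted p = 0.0870) was added. The strands and joined transcripts of mitochondrial DNA make values of overlapping genes (mt-Nd4 with mt-Nd4l, mt-Atp6 with mt-Atp8) uncertain. The protocols name both ribosome depletion and an mRNA kit, so how these RNAs were captured is not settled.

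**Figure D5:**
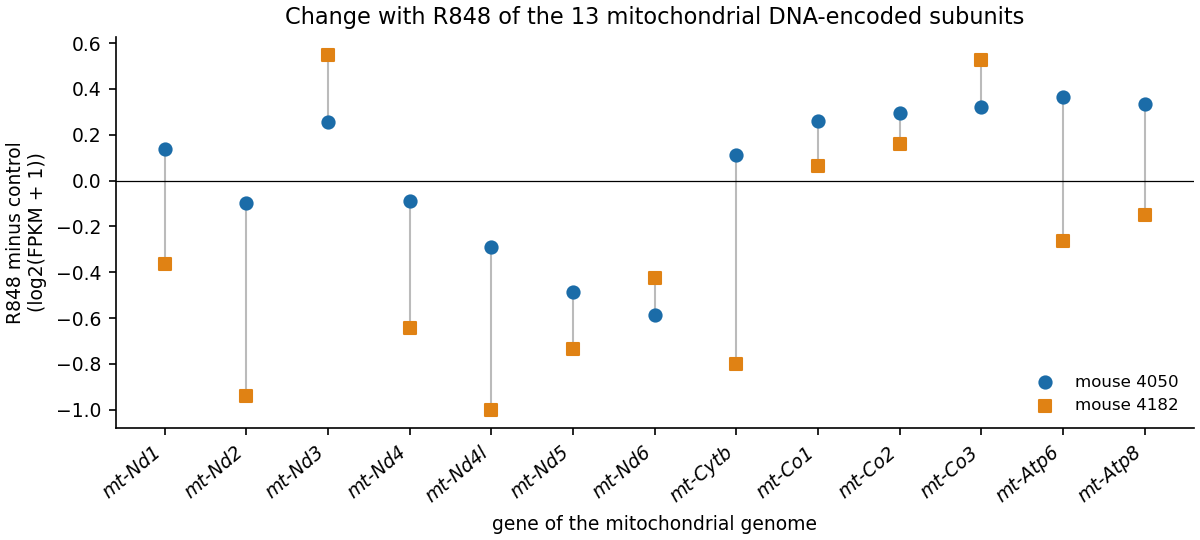
Difference between R848 and control (y axis, log2(FPKM + 1)) for each of the 13 mitochondrial DNA-encoded subunits (x axis), with a circle for mouse 4050 and a square for mouse 4182 joined by a grey line. The 3 mt-Co genes and mt-Nd3 are above 0 in both mice, 5 mt-Nd genes are below 0 in both, and the other 4 genes differ in sign between the mice.

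Of the genes that build or serve the chain, 0 passed limma with or without the block in the lists from here to the import genes. Over all tested genes, limma called 1.47% higher and 0.381% lower, and with the block 3.4% and 1.9%. Of 7 complex I assembly factors with other names, Acad9, with the smallest p, had a log2 difference of 0.29 and Foxred1 of 0.10. Of 3 complex II factors, Sdhaf2 stood at 0.21 and Sdhaf1 at 0.06, and of 4 complex III factors, Mnf1 at 0.17 and Lyrm7 at -0.28. Among 21 complex IV factors, Coa5 had 43.7 and 44.8 FPKM with R848 against 35.2 and 32.2 FPKM in controls (0.39, limma adjusted p = 0.409), and Cox20 stood at -0.47. Of 6 ATP synthase partners, Usmg5, a small subunit of the enzyme that the names above miss, stood at 0.22, and Atpaf1, an assembly factor, at -0.20.

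Cytochrome c and coenzyme Q genes (15 tested) had 5 members higher and 5 lower in both mice, and 33.3% of them lay within 0.2 on the log2 scale, where 53.7% of all tested genes did. Cycs, somatic cytochrome c, had 40.3 and 48.0 FPKM with R848 against 35.5 and 29.9 FPKM in controls (0.42, limma adjusted p = 0.434). Coq9, which binds lipids for coenzyme Q synthesis, had 41.6 and 45.4 FPKM with R848 against 56.4 and 64.2 FPKM in controls (-0.46, limma adjusted p = 0.309). Each R848 sample was above both controls for Cycs and below both for Coq9. Adck3, a kinase-like protein of the same synthesis, stood at -0.59 (limma adjusted p = 0.325).

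Upstream of the chain, 9 of 14 citric acid cycle genes were lower in both mice (64.3%, where 38.8% of all tested genes were). In both mice 1 was higher (7.14%, where 22.1% of all were). Their median was -0.08, and that of all tested genes was also -0.08. Suclg2 and Idh2 had the smallest p, at -0.30 and -0.26. Of 10 pyruvate dehydrogenase genes, Pdk1, a kinase that inactivates the enzyme, had 120 and 118 FPKM with R848 against 156 and 202 FPKM in controls (-0.57, limma adjusted p = 0.233, and 0.0582 with the block), and Pdha1, a subunit of the enzyme, stood at -0.32. Of 14 tested regulators of mitochondrial biogenesis, Tfam, which packs and transcribes mitochondrial DNA, had 73.4 and 50.1 FPKM with R848 against 50.2 and 48.9 FPKM in controls (0.29). Nrf1, a factor that activates many chain genes, stood at -0.24 and Gabpa, an ETS factor with the same role, at -0.34 (limma adjusted p = 0.661 and 0.561). Tfb1m, which methylates mitochondrial ribosomal RNA, stood at -0.33 (limma adjusted p = 0.546). The coactivators Ppargc1a and Ppargc1b had means under 1 FPKM. The 7 carriers and porins and 20 import genes had medians of 0.11 and 0.14, with Slc25a5, an ADP/ATP carrier, at 0.33 and Vdac1, a porin, at -0.25, and with Timm8a1 and Timm23 of the import machinery at 0.36 and 0.27. Of the 7 carriers and porins, 42.9% lay within 0.2.

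A list of 10 genes held inflammatory modulators of the chain, together with the members Cox4i2 and Ndufa4l2 described above. It was chosen with earlier results of these data known. Of the 10, 4 rose and 1 (Cox4i2) fell, beside 1.47% of all tested genes that rose and 0.381% that fell. With the block 4 rose and 2 (Cox4i2 and Ndufa4l2) fell, beside 3.4% and 1.9% of all tested genes. Those that fell repeat the member results. Irg1, which makes the succinate dehydrogenase inhibitor itaconate, had 62.7 and 76.3 FPKM with R848 against 2.40 and 0.557 FPKM in controls and rose by 4.93 ± 0.35 SE (limma adjusted p = 0.00155). Nos2, the inducible nitric oxide synthase, had 11.5 and 11.4 FPKM with R848 against 1.19 and 1.14 FPKM in controls and rose by 2.52 ± 0.20 SE (limma adjusted p = 0.00254). Sod2, the mitochondrial superoxide dismutase, rose by 1.41 (limma adjusted p = 0.00843). Hif1a, the oxygen-regulated part of hypoxia-inducible factor, had 212 and 255 FPKM with R848 against 115 and 110 FPKM in controls and rose by 1.04 (limma adjusted p = 0.0255).

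Irg1 and Nos2 missed the threshold in 1 of 14 settings, with no filter (limma adjusted p = 0.148 each). The Hif1a call also ended under both rescalings without the block (0.0860 and 0.0720), and with either R848 sample left out the Sod2 and Hif1a calls ended. AA467197, a paralogue of Ndufa4 known to replace it in inflamed cells, had 90.4 and 60.0 FPKM with R848 against 83.7 and 54.6 FPKM in controls. Its values followed the mouse more than the treatment, at 0.12 (limma adjusted p = 0.913).

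The spleen cells held myeloid leukaemia markers at high levels. The 6 neutrophil precursor markers summed to 8360 and 8534 FPKM with R848 against 7106 and 7765 FPKM in controls, with 0 called. Macrophage markers (6) summed to 482 and 526 FPKM with R848 against 287 and 215 FPKM in controls, where Emr1 and C1qb rose and Mrc1 fell. Of 8 plasma cell markers 4 rose (sum 1340 and 1172 FPKM with R848 against 538 and 688 FPKM in controls), and of 4 tested B cell markers 3 rose (sum of the 5 listed 39.7 and 41.9 FPKM with R848 against 14.0 and 15.9 FPKM in controls). T cell markers summed to 8.74 and 12.1 FPKM with R848 against 3.24 and 4.68 FPKM in controls, with 2 called higher, and NK cell (3 tested) and erythroid (1 tested) markers had 0 called. Over all tested genes, limma called 1.47% higher and 0.381% lower. The part of the cells marked by these lists in the chain results was not tested.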

How the data were processed

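Per the labels' protocols, RNA was sequenced as paired reads of 150 nucleotides. The submitters' processing notes name kallisto and mm10 (versions and annotation: not given in the sources used here). What the authors deposited is 1 log2 value per gene and sample, called log2 FPKM. Undoing log2(value + 1) gave sums of 948926 to 960471 per sample, as TPM would. They hold no counts, so sequencing depth is unknown and counting error could not be estimated.

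Dropping 27 rows named as dates and 91 repeated symbols left 28074 symbols. The 12612 genes averaging 1 FPKM or more entered 1 fit in limma 3.58.1 (R 4.3.3) on log2(FPKM + 1). It used a trended prior for the variance, two-sided tests and Benjamini-Hochberg adjustment over all of them, at 0.05. The fit was also run on simulated data with known changes. These were drawn without a mouse effect, so that run does not check the pairing. The main fit had no block. R848 and control samples of 1 number come from the same mouse, as the labels say, and are therefore paired (correlation of deviations 0.289), and a fit with the mouse as a block is given beside it. As cultures of 2 mice stand behind each group, p-values rest on 2 residual degrees of freedom (1 with the block) and a prior of 5.27 (11.3). Alternatives were another pseudocount, filters, 2 rescalings, the variance prior and leaving out each sample.

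The members and gene lists were chosen with earlier results of these data known. Named were members called by either fit, the 2 highest and 2 lowest in each complex with the same sign in both mice, the member with the highest level there, all Sdh genes, the isoform pairs, the highest and lowest Ndufaf gene and, per list, called genes or the 2 smallest p (for some marker lists only the sum is given). Cycs, AA467197, Irg1, Nos2, Ppargc1a, Ppargc1b, Tfam and Nrf1 were named besides. Uqcrfs1, Cox7a2l, further mitochondrial DNA genes, Sod2, Hif1a, Pfkfb3, Runx2, Tcf4 and Spib were chosen after their values were seen. Coordinates came from GENCODE M21 (GRCm38). No sequence is given for Atp5a1, Cox4i1, Cox4i2, Cox6a2, Cox6c, Ndufa2, Ndufa4l2, Ndufaf6, Ndufb9, Ndufs1, Sdhc, Uqcrb, Uqcrc2 and Uqcrq. Some results are not reported here.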

Additional observations from a re-analysis of the deposited data

How the results depend on the processing

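Over all tested genes, 185 were called higher and 48 lower. These counts were 429 and 240 with the mouse as a replicate block, 76 and 12 with quantile normalization, 91 and 15 with median log ratio scaling, 354 and 136 with quantile normalization and the block, 404 and 145 with median log ratio scaling and the block, and 0 and 0 with no filter. Leaving out each sample in turn gave 46 to 259 higher and 10 to 136 lower. Among the members, 0 were called higher in every setting run. The count called lower was 1, against 3 with the block (also with either rescaling added), 0 with quantile normalization, median log ratio scaling or no filter, and 0 to 2 with a sample left out: 2 without the control of mouse 4050, 1 without that of mouse 4182 (Ndufa4l2, not Cox4i2), and 0 without either R848 sample. With no filter, 3 members had an unadjusted limma p under 0.05. The cause of these changes was not tested.

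The members' median difference, 0.04, ranged from -0.02 without the control of mouse 4182 to 0.11 with median log ratio scaling (0.01 with quantile normalization, 0.03 without the Ndufaf genes). Of the single genes named, Cox6a2 ranged from -2.70 to -1.14 and Ndufa4l2 from -3.01 to -1.30, each called in 4 of 14 settings. A fit that leaves 1 sample in a group assumes that it varies like the other group. With 2 mice and no counts, small changes of scarce isoforms are beyond what these values can show.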
